A study of Mus musculus with 4 samples.

Results

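The E2F transcription factors and the pocket proteins are the machinery that decides when a cell enters S phase, and 10 of their genes (E2f1 to E2f8, Rb1 and Rbl1) were examined among 21506 genes measured by RNA sequencing in 32Dclone3 cells. The genes were found by symbol in the deposited tables, and each gene is represented by its longest transcript row. 32Dclone3 is an established mouse myeloid line grown in serum with interleukin-3 from WEHI medium. The cells carried either the XZ control virus or XZ-miR-125b, the same virus with the miRNA miR-125b, as stable infections made separately with different virus supernatants, which gave 2 control and 2 miR-125b libraries of poly(A)-enriched RNA. Both groups thus carry a viral vector, and the sources used here do not say whether the infected cells were grown as pools or as clones.

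E2F proteins bind DNA together with a DP partner and switch genes of DNA synthesis and the cell cycle on or off. E2F1, E2F2 and E2F3 act mainly as activators, E2F4 and E2F5 act mainly as repressors with pocket proteins, E2F6 represses without them through Polycomb proteins, and E2F7 and E2F8 are atypical repressors that need no DP partner. The pocket proteins, pRB (from Rb1), p107 (from Rbl1) and p130 (from Rbl2), hold E2Fs in check until cyclin-dependent kinases phosphorylate them, and myeloid cells leave this cycle as they mature into granulocytes. E2F3 has been reported as a miR-125b target in human bladder cancer cells.

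A miRNA lowers messenger RNAs whose 3′ UTR pairs with its seed, bases 2 to 8, so the seed and its matches in the 10 genes are shown first. The mature strand is identical from Mir125b-1 (RefSeq, GRCm38.p6, chr9:41581940-41581961) and from Mir125b-2 on chromosome 16, and capitals mark its seed.
miR-125b-5p: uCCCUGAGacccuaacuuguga
In the longest GENCODE M21 3′ UTR of each gene, 3 of the 10 genes held an 8mer (CTCAGGG followed by A) or a 7mer-m8 (CTCAGGG), namely E2f2, E2f3 and Rb1. Capitals in their sites mark the match, and the surrounding bases are shown for context.
E2f2 8mer: cttccacctaccCTCAGGGAgcctgggt
E2f2 7mer-m8: gagcctgggtttCTCAGGGgctcagtgg
E2f3 8mer: tctaatgccacaCTCAGGGAgaccactt
Rb1 7mer-m8: ggacCTCAGGGccctggacc

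E2f2 (chromosome 4, 135728309 to 135751971 in mm9, 7 exons) held 7 matches of 6 or more bases in a 3′ UTR of 3020 bases. Besides the 8mer and the 7mer-m8, whose first bases lie 18 bases apart, they were 3 7mer-A1 matches (TCAGGGA) and 2 6mers (TCAGGG). E2f3 (chromosome 13, 29998444 to 30077932) held its 8mer and a 7mer-A1 in 3328 bases. The 7mer-m8 of Rb1 (chromosome 14, 73595309 to 73725598) began at base 5 after the stop codon. E2f1 and E2f7 each held a 6mer, and the other 5 genes held no match. Among 9921 tested genes with a 3′ UTR, 15.5% held an 8mer or 7mer-m8, and the same 3 members held one when every annotated transcript was searched.

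**Figure D1:**
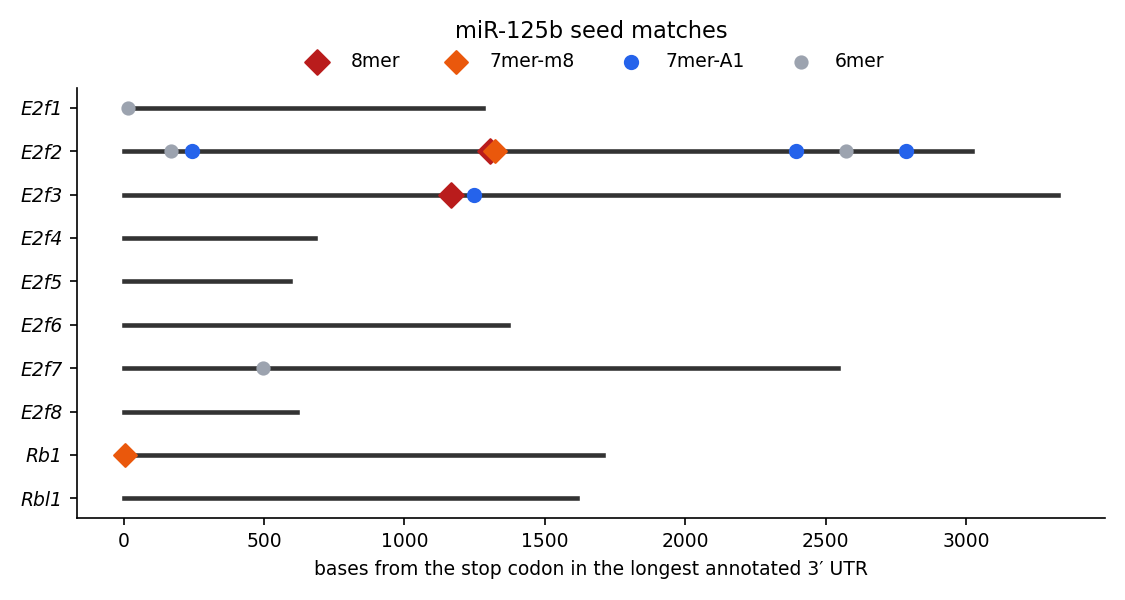
Seed matches for miR-125b in the 3′ UTRs of the 10 genes, longest annotated form, drawn as lines from the stop codon in bases, with diamonds for 8mers and 7mer-m8 matches and circles for shorter ones. E2f2 carries 7 matches, E2f3 carries 2, and 5 genes carry none.

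The libraries held 10376284 to 12620907 reads summed over all rows, so that 1 read on a transcript of 1 kb was worth 0.0792 to 0.0964 RPKM, a read number scaled to exon length and library size. The myeloid label was checked against markers: of 12 markers of myeloid progenitors and granulocytes, 11 were in the tables and 10 reached 1 RPKM, with Kit at 0 to 0.0186 RPKM, while all 8 lymphoid markers were under 1 RPKM in each library. Summed over 8 markers each, the level ranged from 54.3 to 73.3 RPKM in control and 89.3 to 111.2 RPKM in miR-125b libraries for macrophages (Marco and C1qb at 0). The macrophage markers did not move together. Cd68 was at 26.0 and 39.1 RPKM in control against 85.2 and 76.7 with miR-125b. Emr1 was at 27.2 and 30.6 against 24.4 and 11.3 RPKM, and the other macrophage markers reached at most 2.10 RPKM. Over the 4 libraries the sum ranged from 27.4 to 41.1 RPKM for mast cells and basophils (Tpsb2 and Fcer1a at 0). For erythroid cells and megakaryocytes it ranged from 108.9 to 246.6 RPKM (Hbb-b1 at 0), and Itga2b was its largest part, at 74.9 to 179.3 RPKM. For stroma it ranged from 4.93 to 9.94 RPKM (Col1a2, Col3a1 and Dcn at 0). The summed level of the 11 myeloid markers was 961.8 to 1790.3 RPKM. On a principal component with 57.8% of the variance, control replicate 2 scored 0.80 and control replicate 1 scored 0.0053. The miR-125b libraries scored -0.29 and -0.52, so this axis set control replicate 2 apart and also separated the groups. Control replicate 1 was closer to miR-125b replicate 1 (Pearson's r across genes 0.977) than to control replicate 2 (0.957). Of the 10 genes, 7 were lower in control replicate 2 than in control replicate 1. The share of all tested genes lower there is not given, so this count is not read as a trait of the family. Results that rest on this library are given with and without it.

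All 10 genes were expressed above the limit of at least 1 RPKM in at least 2 libraries and were tested, with 60 to 1674 reads behind a value. E2f4 was the most abundant, and it made up 33.0% to 37.6% of the summed RPKM of the 8 E2f genes. It was followed in control cells by E2f8 and E2f1, whose libraries did not overlap with E2f4 or with each other. By their control means, E2f7, Rbl1, E2f6, E2f3, Rb1 and E2f2 followed in that order. Between neighbours among these genes, the ranges over the 2 control libraries overlapped. Within each control library, however, Rbl1 was above E2f6, E2f6 above E2f3 and E2f3 above Rb1. E2f5 was the lowest, and its range lay below that of E2f2. In miR-125b cells the ranges of E2f1 and E2f8 overlapped, and E2f2 took the lowest place, below E2f5.

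**Figure D2:**
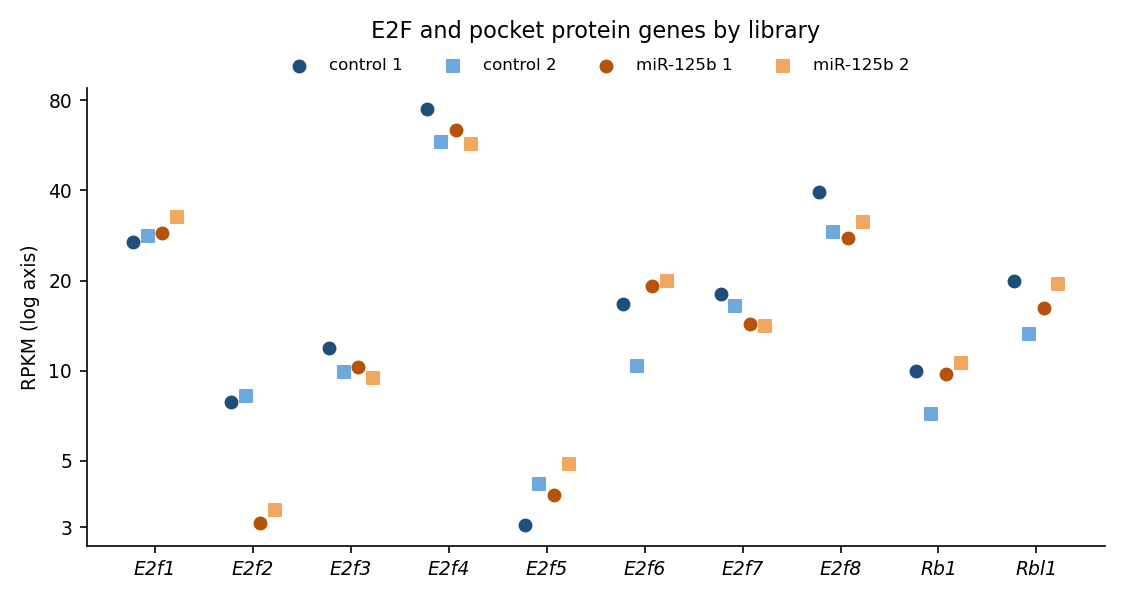
RPKM of each gene in each library on a log axis, with circles for replicate 1 and squares for replicate 2. E2f2 lies between 7.88 and 8.26 RPKM in control and between 3.09 and 3.44 RPKM in miR-125b libraries, and in the other 9 genes the groups lie closer together.

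Across the 10 genes the comparison of control with miR-125b cells turned on E2f2. In limma's moderated test on log2(RPKM + 1), 0 of the 10 genes passed an adjusted p of 0.05, as did 0 of all 10309 tested genes (0%), and limma-voom on the recovered reads also called 0. At an unadjusted p under 0.05, 1 of the 10 genes was lower with miR-125b and 0 were higher, beside 9.37% of all tested genes in either direction, 5.2% lower and 4.17% higher. The groups did not overlap for 4 of the 10 genes, 2 lower and 2 higher, beside 42.8% of all tested genes in either direction, 20.4% lower and 22.3% higher, so the family's counts were near the background. The median log2 fold change of the 10 genes was -0.0049, beside 0.024 for all tested genes. With 2 libraries a group, an exact permutation test of a single value cannot give a 2-sided p below 0.333.

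Among the activators, E2f2, which drives S-phase genes and is prominent in blood cells, stood at 7.88 and 8.26 RPKM under the control virus, compared with 3.09 and 3.44 RPKM under miR-125b, from 419, 406, 185 and 191 reads. Both miR-125b libraries lay below both controls, and the gap exceeded the distance between replicates in either group. The control mean was 2.47 times the miR-125b mean, and E2f2 was the 1 member lower by at least 1 on the log2 scale, as were 1.42% of all tested genes. The log2 fold change was -1.09 ± 0.18 (SE, n = 2 each, 95% interval -1.52 to -0.66). In limma's test its unadjusted p was 6.23e-04, the 23rd smallest of all tested genes, and its adjusted p of 0.271 did not pass. The log2 fold change was -1.06 without control replicate 2 and -1.12 without control replicate 1, where the adjusted p was 0.255 and 0.0711. Over all alternatives its adjusted p ran from 0.0711 to 0.553.

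E2f1, the activator also known for inducing apoptosis genes (chromosome 2, 154385375 to 154395588), was at 27.0 and 28.1 RPKM in control against 28.8 and 32.7 with miR-125b. The groups did not overlap, but the distance between them was smaller than the distance between the miR-125b libraries. Its log2 fold change was 0.15 ± 0.18 (SE, 95% interval -0.29 to 0.59), with an adjusted p of 0.781 in limma's test. E2f3, the activator with an 8mer, was at 11.95 and 9.93 RPKM in control against 10.3 and 9.43 with miR-125b. Its groups overlapped, and the log2 fold change of -0.13 ± 0.18 (SE) had a 95% interval from -0.57 to 0.31, with a limma adjusted p of 0.818. It was -0.26 without control replicate 2 and -0.0099 without control replicate 1. The 95% interval of E2f3 thus lay above that of E2f2, though the difference between these genes was not tested. As context, the median log2 fold change was -0.12 over the 550 tested genes whose best match was an 8mer, as in E2f2 and E2f3, and 0.050 over the 6343 genes with no match.

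Summed over the activators E2f1, E2f2 and E2f3, the level was 46.8 and 46.3 RPKM in control against 42.1 and 45.6 with miR-125b. Both miR-125b sums were below both controls, but the miR-125b libraries lay further apart from each other than the nearer one lay from the controls. E2f2 made up 16.8% and 17.8% of that sum in control and 7.34% and 7.54% with miR-125b. The share of E2f1 was 57.6% and 60.7% in control and 68.2% and 71.8% with miR-125b, and that of E2f3 overlapped, at 25.5% and 21.5% against 24.4% and 20.7%.

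**Figure D3:**
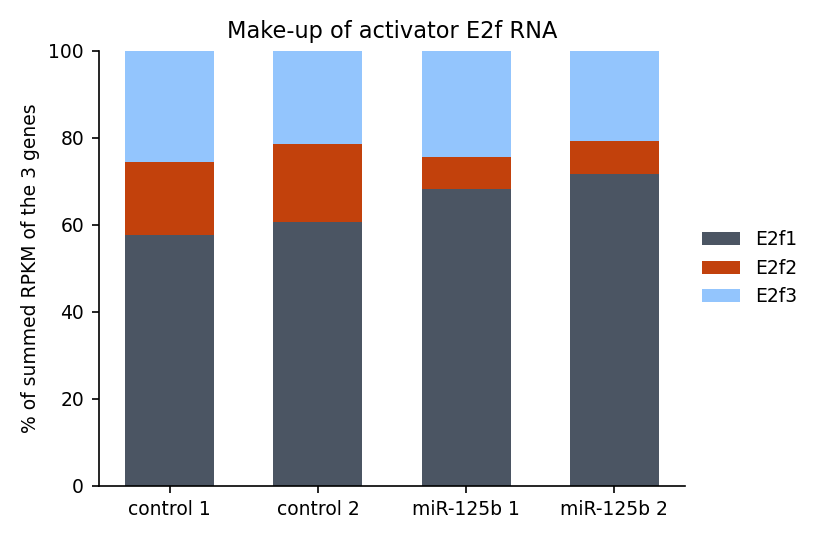
Share of E2f1, E2f2 and E2f3 in the summed RPKM of the 3 activator genes, as stacked bars from 0 to 100% for each library. The E2f2 part is 16.8% and 17.8% in control and 7.34% and 7.54% in miR-125b libraries.

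Of the repressors that work with pocket proteins, E2f4 (chromosome 8, 107821563 to 107829270) was at 74.8 and 58.3 RPKM in control against 63.5 and 57.1 with miR-125b. Its groups overlapped, with a log2 fold change of -0.13 ± 0.21 (SE) that was -0.31 without control replicate 2 and 0.047 without control replicate 1. E2f5 (chromosome 3, 14578671 to 14606309), of the same class, was at 3.06 and 4.19 RPKM in control against 3.85 and 4.87 with miR-125b. These groups overlapped too, with a log2 fold change of 0.22 ± 0.22 (SE), 0.40 without control replicate 2 and 0.041 without control replicate 1, from 60 to 100 reads a library.

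E2f6, the Polycomb-linked repressor (chromosome 12, 16817771 to 16833549), was at 16.7 and 10.4 RPKM in control against 19.2 and 19.9 with miR-125b. Both miR-125b libraries were above both controls, but the controls lay further apart from each other than control replicate 1 lay from the miR-125b libraries. The log2 fold change was 0.54 ± 0.24 (SE, 95% interval -0.048 to 1.12), with an unadjusted p of 0.0665 and an adjusted p of 0.548 in limma's test. It was 0.22 without control replicate 2 and 0.85 without control replicate 1, where the unadjusted p was 0.209 and 0.00219. The tables hold 2 rows for E2f6, a coding transcript and a noncoding one with an added exon, and their read numbers were close in each library, at 461 and 465 in control replicate 1. How the authors assigned reads to both rows is not stated, so the rows are not read as separate levels, and taking the shorter, coding row gave a log2 fold change of 0.53.

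The atypical repressors were both abundant. E2f7 (chromosome 10, 110182521 to 110224440) was at 18.0 and 16.5 RPKM in control against 14.3 and 14.1 with miR-125b. All its miR-125b values were below the controls, and the control mean was 1.21 times the miR-125b mean. Its log2 fold change of -0.26 ± 0.17 (SE) had an adjusted p of 0.643 in limma's test, and it ran from -0.32 to -0.20 over all alternatives. E2f8 (chromosome 7, 56121800 to 56136411) was at 39.5 and 29.1 RPKM in control against 27.7 and 31.5 with miR-125b. The groups overlapped, and the log2 fold change of -0.20 ± 0.22 (SE) was -0.41 without control replicate 2 and 0.018 without control replicate 1.

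For both pocket protein genes the groups overlapped. Rb1, the retinoblastoma gene, was at 10.0 and 7.17 RPKM in control against 9.77 and 10.6 with miR-125b. Control replicate 2 was the low library, and the log2 fold change of 0.24 ± 0.21 (SE, 95% interval -0.26 to 0.73) was 0.020 without it and 0.45 without control replicate 1. Rbl1 (chromosome 2, 156971639 to 157030270), the gene of p107, was at 20.01 and 13.2 RPKM in control against 16.2 and 19.5 with miR-125b. It had the same low library, and the log2 difference, 0.12 ± 0.24 (SE), became -0.16 without control replicate 2 and 0.40 without control replicate 1. A shorter Rbl1 transcript of 13 exons had 17.4 and 11.7 RPKM in control against 13.7 and 17.3 with miR-125b, in the same order of libraries as the long one of 22 exons. Transcript GC content was lowest in Rb1 and Rbl1, at 41.2% and 42.1%, and highest in E2f1 and E2f2, at 58.3% and 56.6%. Between control replicate 2 and control replicate 1 the log2 difference was -0.43 for Rb1 and -0.56 for Rbl1, and 0.057 for E2f1 and 0.061 for E2f2. It did not follow GC content in every gene, as it was -0.35 for E2f4 at 56.1% and 0.36 for E2f5 at 46.8%. The largest difference was that of E2f6, -0.63 at 49.2%, and that of E2f8 was -0.43 at 50.1%. The part of GC content in these differences was not tested.

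**Figure D4:**
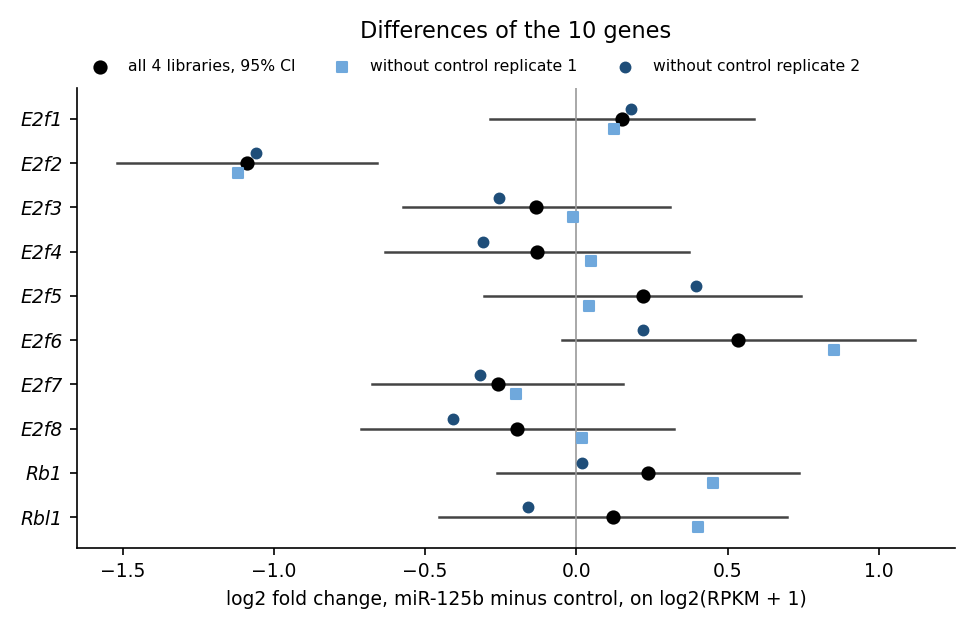
Log2 fold change of each gene, miR-125b minus control, on the log2(RPKM + 1) scale, with black points and 95% intervals from all 4 libraries and coloured points without either control library. The interval of E2f2, -1.52 to -0.66, is the only one of the 10 that does not reach 0, and E2f4, E2f8 and Rbl1 change sign with the control library left out.

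The 5 genes at a mean of 5 RPKM or more whose profile over the 4 libraries lay nearest to that of E2f2 were Mesdc1, Pctp, Rce1, Lyz2 and 2010320M18Rik, at Euclidean distances of 0.130 to 0.210 on the centred log2 scale among 8073 genes. Pctp, a phosphatidylcholine transfer protein gene with a 7mer-m8, was at 7.14 and 7.63 RPKM in control against 2.89 and 2.72 with miR-125b. Lyz2, the lysozyme gene of myeloid cells with a 7mer-A1, was at 140.4 and 157.4 RPKM in control against 58.0 and 66.1 with miR-125b. The best match of Mesdc1, the nearest gene, was a 6mer, Rce1 held no match, and no 3′ UTR was available for 2010320M18Rik. The nearest of the other 9 family genes was E2f7, at 0.843, whereas E2f3 and E2f4 lay 0.082 apart and Rb1 and Rbl1 0.180 apart. Among late neutrophil genes, the summed level over 9 markers was 923.8 and 591.5 RPKM in control against 185.5 and 148.6 with miR-125b. S100a9 was the largest part of the control sums, at 459.7 and 247.8 RPKM in control against 33.0 and 1.92 with miR-125b, and S100a8, Ngp, Ltf and Cebpe were also below both controls in both miR-125b libraries. Lcn2 overlapped and had the higher mean with miR-125b, at 21.9 and 51.7 against 29.4 and 67.6 RPKM. Camp overlapped at 0.142 to 1.19 RPKM, Mmp9 was at 0.126 to 0.227 RPKM, and Mmp8 was at 0. The part of these markers in the E2f2 result was not tested, and in bulk RNA fewer cells of a kind and less RNA per cell cannot be told apart.

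Genes of the E2F family are themselves known E2F targets, so their promoters were searched for 4 spellings of the E2F motif, TTTGGCGC, TTTCCCGC, TTTCGCGC and TTTGCCGC, on both strands from 250 bases before to 50 after each RefSeq start. Of 7 members with an entry, 4 held a match, beside 5.01% of 7231 tested genes. The matches are shown in capitals on the strand of the gene (RefSeq, GRCm38.p6), where GCGGGAAA is TTTCCCGC read on the other strand.
E2f2 at chr4:136172294-136172323, plus strand: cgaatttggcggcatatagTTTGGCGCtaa
E2f3 at chr13:29986056-29986085, minus strand: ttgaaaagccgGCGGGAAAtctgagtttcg
E2f7 at chr10:110745230-110745259, plus strand: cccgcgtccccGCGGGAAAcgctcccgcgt
Rbl1 at chr2:157204534-157204563, minus strand: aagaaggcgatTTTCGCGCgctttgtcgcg
The match of E2f2 began 39 bases after the start while those of E2f3, E2f7 and Rbl1 began 11, 198 and 18 bases before it. These 4 genes had log2 fold changes of -1.09, -0.13, -0.26 and 0.12 in the order shown. The values were -1.06, -0.26, -0.32 and -0.16 without control replicate 2, and -1.12, -0.0099, -0.20 and 0.40 without control replicate 1. Whether holding a match goes with a direction was not tested. E2f1, E2f6 and E2f8 held none of these letters in the window.

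Of 10 genes of DP partners, p130 and the MuvB complex, which assembles with p130 and E2F4 in resting cells and with B-Myb in cycling ones, 0 had an unadjusted p under 0.05 (beside 9.37% of all tested genes), and the list's median log2 fold change was 0.12. It was -0.094 without control replicate 2 and 0.28 without control replicate 1. Tfdp1, which encodes the main DP partner, was at 77.5 and 41.6 RPKM in control against 57.8 and 56.7 with miR-125b, so that the controls lay on both sides. Rbl2, the third pocket protein gene, was at 16.0 and 15.8 RPKM in control against 14.3 and 14.0 with miR-125b, a log2 fold change of -0.16 ± 0.17 (SE). Foxm1, a mitotic transcription factor that joins MuvB, was at 18.0 and 21.2 against 23.3 and 22.6 RPKM, and the MuvB genes Lin37 and Lin54 had log2 fold changes of -0.26 ± 0.21 and 0.20 ± 0.17 (SE). Rbbp4, a histone-binding subunit, was at 60.1 and 44.5 against 58.1 and 63.0 RPKM, which overlap.

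Upstream of the pocket proteins, 12 of 17 G1 cyclin, CDK and inhibitor genes were tested, of which 1 was lower, 1 was higher and 10 had an unadjusted p of 0.05 or more, beside 5.2% lower and 4.17% higher of all tested genes. Both counts were 0 with no filter on low values. The list's median log2 fold change was 0.11, beside 0.024 for all tested genes. It was 0.079 without control replicate 1 and 0.0058 without control replicate 2. The lower gene was Cdkn1a, which encodes the CDK inhibitor p21, at 219.6 and 329.8 RPKM in control against 165.5 and 165.7 with miR-125b (unadjusted p = 0.028 in limma's test). The higher gene was Skp2, which encodes the ubiquitin ligase subunit that degrades p27, at 6.30 and 3.97 RPKM in control against 8.48 and 7.88 with miR-125b (unadjusted p = 0.036 in limma's test). Neither passed over all genes, with limma adjusted p of 0.49995 and 0.505.

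The D cyclins start pocket protein phosphorylation with CDK4 and CDK6. Ccnd2 was at 82.6 and 83.8 RPKM in control against 86.8 and 78.3 with miR-125b, Ccnd3 at 81.6 and 114.0 against 65.3 and 79.1 RPKM, and Ccnd1 at 0.355 to 0.584 RPKM in all. Cyclin D RNA was thus mainly Ccnd2 and Ccnd3. For Ccnd3 both miR-125b libraries were below both controls, as in 20.4% of all tested genes. Its controls lay further apart from each other than control replicate 1 lay from the miR-125b libraries. The log2 fold change of Ccnd3 was -0.42 ± 0.24 (SE), with an unadjusted p of 0.123 in limma's test. Ccne1, a cyclin E gene and an E2F target, was at 24.8 and 15.6 against 19.3 and 12.3 RPKM, which overlap. Of the inhibitors that bind CDK4 and CDK6, Cdkn2c was at 14.98 to 23.2 RPKM in the 4 libraries, while Cdkn2a, Cdkn2b, Cdkn2d and the p57 gene Cdkn1c held 0 reads, which allows up to 3 reads in each library, counting error only. Cdk2, the kinase that cyclin E activates, was at 36.3 and 30.8 against 39.7 and 39.1 RPKM, and Cdk4 and Cdk6 overlapped between groups.

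Classical E2F targets of S phase include the Mcm helicase genes. Of 52 tested genes, 1 was lower at an unadjusted p under 0.05 and 0 were higher, where the background was 9.37%, and 44 of the 52 log2 fold changes were above 0. Their median was 0.23, beside 0.024 for all tested genes. Without control replicate 2 it was -0.0029, with 25 of 52 above 0, and without control replicate 1 it was 0.43, with 27 genes higher at an unadjusted p under 0.05 beside 15.5% of all genes in that setting. The list's direction therefore depended on which control library was used.

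Fen1, the flap endonuclease of Okazaki fragment processing, was the lower gene, at 108.6 and 90.1 RPKM in control against 72.9 and 51.0 with miR-125b. Rfc4, a clamp loader subunit, was at 22.1 and 13.9 RPKM in control against 24.4 and 30.8 with miR-125b. Gins2, part of the replicative helicase, was at 35.3 and 27.7 against 41.7 and 42.4 RPKM, and Chek1, the replication checkpoint kinase, at 11.9 and 5.08 against 13.1 and 13.4 RPKM. In these last 3 genes the miR-125b libraries were above the controls, and control replicate 2 was the lowest library. These genes were named for the smallest p of the list, so this separation is not further evidence. Over all 52 tested genes of the list, the groups did not overlap for 13 higher and 1 lower with miR-125b. The background was 22.3% higher and 20.4% lower of all tested genes.

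**Figure D5:**
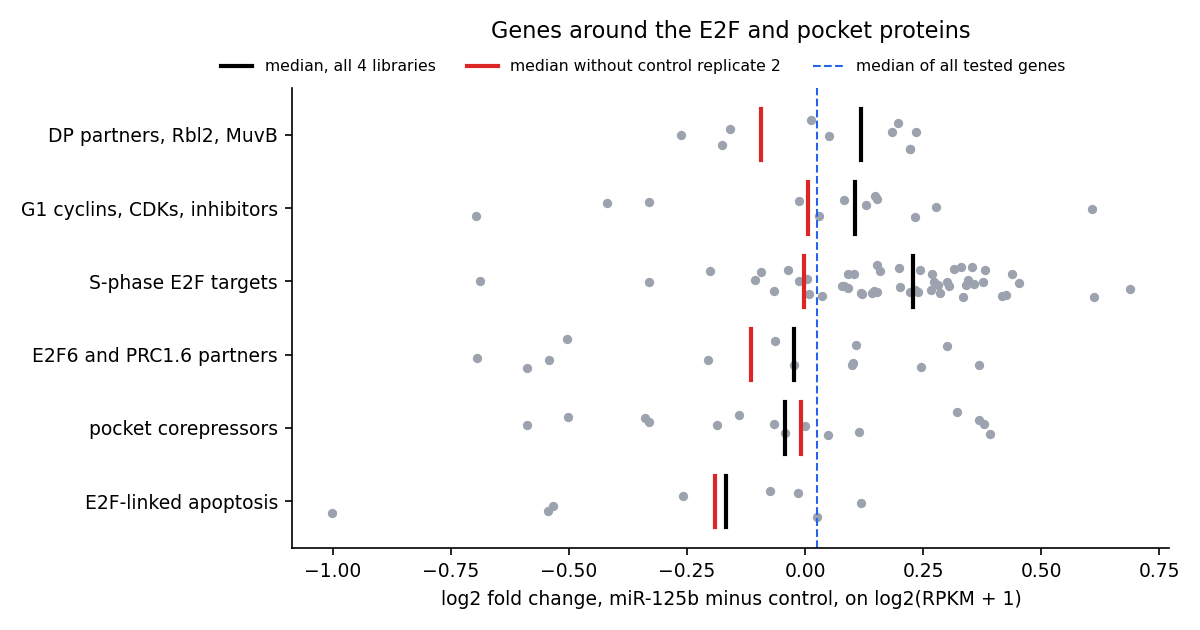
Log2 fold changes, miR-125b minus control, of tested genes in 6 lists around the E2F and pocket proteins (grey points, spread vertically for sight only), with the list median from all 4 libraries in black without control replicate 2 in red, and the median of all tested genes as a dashed line. The median of the S-phase targets moves from 0.23 to -0.0029 and that of the apoptosis genes from -0.17 to -0.19.

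E2F6 recruits a Polycomb complex, and 3 of its 13 partner genes were lower at an unadjusted p under 0.05 while 0 were higher, beside a background of 5.2% lower. Ring1, a ubiquitin ligase of the complex, was at 9.73 and 15.6 RPKM in control against 7.21 and 7.26 with miR-125b. Pcgf6, the subunit that defines the complex, was at 15.7 and 13.3 against 10.8 and 9.10 RPKM, and L3mbtl2, a chromatin-binding subunit, at 22.6 and 17.2 against 14.1 and 12.4 RPKM. In each of these 3 genes both miR-125b libraries were below both controls, as in 20.4% of all tested genes, with limma adjusted p from 0.488 to 0.505. They were named for the smallest p of the list, so this separation is not further evidence. The count lower was 2 with no filter on low values, and it was also smaller whichever library was left out. Hdac1 had low values, 1.45 and 4.205 against 1.41 and 1.34 RPKM. The list's median was -0.023, beside 0.024 for all tested genes. It ran from -0.13 to 0.16 with libraries left out and was 0.0036 under quantile normalization. None of 10 germline genes held down through E2F6 in somatic cells was tested, and the highest value among them was 0.243 RPKM, so no release of them was detectable at this depth.

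Of 15 corepressors that bind pocket proteins, 0 had an unadjusted p under 0.05, beside 9.37% of all tested genes, and their median was -0.042. Leaving out control replicate 1 moved the list's median to -0.071, and leaving out control replicate 2 instead moved it to -0.0091. The list's count at an unadjusted p under 0.05 changed in both of these fits, as did the count over all tested genes. Ctbp1, a corepressor dehydrogenase, was at 42.5 and 62.5 against 35.1 and 37.2 RPKM, and Sin3a, a scaffold of histone deacetylases, at 26.8 and 21.2 against 28.5 and 34.4 RPKM. Ctbp2 and Rbbp8 had log2 fold changes of -0.33 ± 0.19 and 0.39 ± 0.23 (SE).

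Of 8 tested apoptosis genes linked to E2F1, 0 had an unadjusted p under 0.05, beside 9.37% of all tested genes, and the median was -0.17. It ran from -0.29 without miR-125b replicate 1 to -0.051 without miR-125b replicate 2, and was -0.045 with no filter on low values. The count lower was 1 under limma-voom and under the replicate block, beside 545 and 616 of all 10309 tested genes in those settings. With a library left out, the counts lower and higher each changed in at least 1 fit. Bbc3, which encodes the BH3-only protein PUMA, was at 15.5 and 43.0 RPKM in control against 10.8 and 14.3 with miR-125b. Bcl2l11, which encodes BIM, was at 6.26 and 8.04 against 5.95 and 3.43 RPKM. Casp8, an initiator caspase gene, was at 28.6 and 29.9 against 27.8 and 21.1 RPKM. For Bbc3, Bcl2l11 and Casp8 both miR-125b libraries were below both controls. They were named for the smallest p of the list, so this separation is not further evidence. Over all 8 tested genes of the list, the groups did not overlap for 4 lower and 0 higher with miR-125b. The background was 20.4% lower and 22.3% higher of all tested genes.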

How the data were processed

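The authors deposited 1 table per library with RPKM values for 26982 RefSeq transcript rows and the build mm9 is named in the submitters' processing notes. Aligner, counter, strand setting and treatment of multiply mapping reads: not given in the sources used here. Antisense partners and near-identical copies are therefore uncertain. Multiplying RPKM by exon length gave whole reads for 100.0% of rows, within 0.001 reads. The longest row per gene was kept.

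A count test had been planned if the files gave raw counts. The values are RPKM, so limma 3.58.1 (R 4.3.3, trended prior, 2-sided) was fitted to log2(RPKM + 1) with group as the only term, for genes at 1 RPKM or more in at least 2 libraries. The pseudocount of 1 understates changes of low genes. Adjusted p-values follow Benjamini and Hochberg over all 10309 genes. The script was tested on simulated data. With 2 residual and 4.63 prior degrees of freedom, p-values measure the spread between these infections only.

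The 10 genes, the 7 pathway lists and the 7 marker lists were chosen with earlier results of these data known. Named genes are the 10 members, up to 4 tested genes with the smallest p of each list, dimer partners, Rbl2, cyclins D and E and CDK inhibitors, and the 5 nearest profiles to the member with the smallest p. A gene that this rule names is not reported here. 3′ UTRs came from GENCODE M21 (GRCm38), used by name only. Alternatives were the pseudocount, the filter, unweighted TMM (trimmed mean of M-values) and quantile scaling, the shortest row, limma-voom, a replicate block and leaving out each library.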

Additional observations from a re-analysis of the deposited data

How the results depend on the processing

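The sign of the log2 fold change held in all alternatives that gave a value for E2f1, E2f2, E2f3, E2f5, E2f6, E2f7 and Rb1, and none of the 10 genes reached an adjusted p of 0.05 in any. For genes whose groups do not overlap, leaving out a library cannot turn the sign. With libraries left out in turn, log2 fold changes ran from -0.31 to 0.047 for E2f4, from -0.41 to 0.018 for E2f8 and from -0.16 to 0.40 for Rbl1, and the cause was not tested. The count of members at an unadjusted p under 0.05 ran from 1 to 3, with E2f2, E2f6 and Rb1 without control replicate 1. Over all genes that count was 966 and ran from 322 to 3018, and the count past an adjusted p of 0.05 was 0 and ran from 0 to 108, reaching 108 when miR-125b replicate 1 was dropped and 24 when miR-125b replicate 2 was. Dropping a library leaves 1 sample in its group, assumed to vary like the other group. With the replicate block 12 genes passed, none of them among the 10. Libraries of 1 number share only that number, and their deviations from the group means correlated at 0.021. E2f5 has a mean under 5 RPKM and was not held by that filter. Low depth limits E2f5 most, with 60 reads in its smallest library.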
